A study of Mus musculus with 18 samples.

Results

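The genes described here are a set of targets and regulators of the transcription factor NRF2 together with the glutathione transferases, measured by RNA sequencing in 6 groups of mouse cells. Members were chosen by symbol. They are every gene of the alpha, kappa, mu, omega, pi, theta and zeta transferase classes, plus 18 named regulators and antioxidant enzymes, with pseudogenes marked -ps left out. The set holds 40 of the 18397 genes measured, and 22 of the 40 are transferases of these classes. Positions are those of the RefSeq annotation of GRCm38.p6, counted from 1, in which all 40 were found.

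Every library is labelled as RAW264.7, a virus-transformed mouse macrophage line, and no other genotype, strain or age is given for any group. The series compares a soft with a stiff matrix, by themselves (the groups Soft and Stiff), with something added that the labels call mito (Soft+mito and Stiff+mito) and with a setup called TW (the groups Soft-TW and Stiff-TW). Each of the 6 groups has 3 libraries. Neither abbreviation is explained in the sources used here, and no stiffness is stated. The title of the series concerns mitochondria passed between cells according to stiffness, and its design text speaks of both macrophages and tumor cells. The labels call the libraries of a group biosamples and do not say whether they came from separate cultures, so p-values here reflect no more than how these libraries vary, and that variation may be technical.

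NRF2, encoded by Nfe2l2, is held at a low level in unstressed cells by KEAP1, which presents it to a ubiquitin ligase built on CUL3. Oxidants and electrophiles modify KEAP1, NRF2 then accumulates, and as a dimer with a small MAF protein it binds antioxidant response elements in front of genes for glutathione synthesis, the thioredoxin system, quinone and heme metabolism and conjugation. Because this control acts mainly on the protein, the Nfe2l2 transcript is not a measure of NRF2 activity. Glutathione transferases join glutathione to electrophilic compounds, and their classes differ in substrates and in the tissues that express them.

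The total of estimated counts ran from 16054637 to 16887244 per library, and between 11785 and 11909 genes reached 10 counts in a library. Markers of the labelled cell type were mostly near 0. Of 15 macrophage markers, 2 (Lyz2 and Cd14) averaged at least 10 TPM (a level scaled by transcript length and library total), while the group means of Csf1r, Adgre1 and Ptprc did not exceed 0.83, 0.0833 and 0.183 TPM. None of the 15 was at 0 in all 18 libraries. Their summed level was 40.9 to 42.3 TPM in Soft, 50.3 to 54.5 in Soft+mito, 85.8 to 88.8 in Soft-TW, 33.5 to 38.2 in Stiff, 41.7 to 45.0 with mito on stiff and 56.8 to 59.7 in Stiff-TW. Of 6 epithelial markers, Krt8 and Krt18 were abundant and Epcam and Cdh1 were near 0. On the soft matrix the epithelial sum averaged 1010.4 TPM alone, 1036 with mito and 775 with TW, and on the stiff matrix 703 alone, 747 with mito and 675 with TW, so it was lowest in the group where most members were lowest. The summed level of 8 fibroblast and mesenchymal markers, most of it Vim, had means of 2235, 2566 and 3068 TPM in the same soft groups and 1512, 2121 and 4364 in the stiff ones, with its highest mean in Stiff-TW. The summed level of 6 hepatocyte markers did not exceed 3.42 TPM in any library, which is given because alpha class transferases are abundant in liver. In bulk RNA, fewer cells of a type and less RNA per cell cannot be told apart, and the part of these marker differences in the results below was not tested.

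The promoters of 6 members are shown because these genes carry the results that follow. Srxn1, Prdx1 and Gclm are textbook NRF2 targets that fell together, Gstp1 was the most abundant member, and Gsta1 and Gsta2 had the largest changes. Each sequence is the RefSeq window of GRCm38.p6 from 250 bases before to 50 bases after the start of the transcript, read along the gene. Capitals mark matches on either strand to 3 motifs: TGACNNNGC, the core of the antioxidant response element, TGAGNNNGC, a form of that core with G in place of C, and TGANTCA, the AP-1 element, which can overlap either core. The windows are chr2:152105274-152105573 on the plus strand (Srxn1), chr4:116685349-116685648 on the plus strand (Prdx1), chr3:122245307-122245606 on the plus strand (Gclm), chr19:4037863-4038162 on the minus strand (Gstp1), chr9:78230419-78230718 on the plus strand (Gsta1) and chr9:78347096-78347395 on the minus strand (Gsta2).
Srxn1: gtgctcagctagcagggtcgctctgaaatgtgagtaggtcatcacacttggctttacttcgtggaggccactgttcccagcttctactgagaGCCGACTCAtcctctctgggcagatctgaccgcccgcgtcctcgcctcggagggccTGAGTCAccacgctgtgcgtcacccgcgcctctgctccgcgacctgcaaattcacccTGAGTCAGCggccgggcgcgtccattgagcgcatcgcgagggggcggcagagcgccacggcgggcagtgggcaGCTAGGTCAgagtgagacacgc
Prdx1: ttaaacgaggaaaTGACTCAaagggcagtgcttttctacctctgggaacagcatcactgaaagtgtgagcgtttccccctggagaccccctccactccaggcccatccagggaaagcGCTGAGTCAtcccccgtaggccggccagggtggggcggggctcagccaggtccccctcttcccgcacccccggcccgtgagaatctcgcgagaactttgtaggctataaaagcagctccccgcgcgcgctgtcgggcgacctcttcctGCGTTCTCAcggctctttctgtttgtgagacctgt
Gclm: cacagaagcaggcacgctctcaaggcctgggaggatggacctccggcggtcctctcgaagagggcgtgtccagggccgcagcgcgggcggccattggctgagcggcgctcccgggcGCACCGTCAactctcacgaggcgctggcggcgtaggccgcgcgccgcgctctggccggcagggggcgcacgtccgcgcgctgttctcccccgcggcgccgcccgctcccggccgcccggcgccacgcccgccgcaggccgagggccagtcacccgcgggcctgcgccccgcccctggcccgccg
Gstp1: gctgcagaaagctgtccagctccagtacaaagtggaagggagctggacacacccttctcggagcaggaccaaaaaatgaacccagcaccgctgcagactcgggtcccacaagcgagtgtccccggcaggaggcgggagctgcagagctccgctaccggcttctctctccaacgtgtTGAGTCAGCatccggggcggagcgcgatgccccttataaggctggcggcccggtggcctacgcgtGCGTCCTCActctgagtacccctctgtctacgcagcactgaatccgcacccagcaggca
Gsta1: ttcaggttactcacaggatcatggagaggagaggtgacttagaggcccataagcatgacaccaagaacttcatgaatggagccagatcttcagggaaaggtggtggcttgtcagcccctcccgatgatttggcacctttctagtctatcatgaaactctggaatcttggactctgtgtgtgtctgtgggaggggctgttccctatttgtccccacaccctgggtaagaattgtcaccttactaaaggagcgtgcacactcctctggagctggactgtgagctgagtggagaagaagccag
Gsta2: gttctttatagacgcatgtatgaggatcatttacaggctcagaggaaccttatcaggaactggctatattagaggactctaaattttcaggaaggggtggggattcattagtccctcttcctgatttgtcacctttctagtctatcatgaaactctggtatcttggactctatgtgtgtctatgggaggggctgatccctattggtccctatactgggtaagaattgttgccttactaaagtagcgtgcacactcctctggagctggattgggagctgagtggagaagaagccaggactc

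The Srxn1 window held a TGAGTCAGC at -45 from the start, where 0 is the first transcribed base and a match is placed by its leftmost base, and the Gstp1 window held the same 9 letters at -74. In Prdx1 the sequence GCTGAGTCA at -133 matched both the core on the minus strand and the AP-1 element. The single match in Gclm was GCACCGTCA at -134. The windows of Gsta1 and Gsta2, which aligned with 74.6% identity, held none of the 3 motifs, which says only that these letters are not in these windows. Promoter windows were found for 34 of the 40 members, and not for Hmox1, Gclc, Gsr, Prdx6, Gsta4 and Gstt2. TGACNNNGC occurred in 10 of the 34 (29.4%; Nfe2l2, Gclm, Prdx1, Srxn1, Txnrd1, Sod1, Mgst1, Gsta3, Gstm5 and Gstm7), beside 14.0% of 27025 genes with a window of the same length. TGAGNNNGC, a motif added after the windows had been read, occurred in 9 (26.5%, beside 19.8%), and TGANTCA in 5 (14.7%, beside 8.97%). A match is a description of sequence and not a binding site.

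The 40 members together made up 1.21% of all TPM. A pi class transferase, Gstp1 (chromosome 19, 4035411 to 4037912), was the most abundant, with a mean of 1840.2 TPM over the 18 libraries, followed by Prdx1 (1649), Gpx4 (1622), Txn1 (1069), Sod1 (888) and Nqo1 (819). The summed TPM of the members was 13445 ± 55.1 (SD, n = 3) in Soft, 13695 ± 114 in Soft+mito and 11636 ± 86.8 in Soft-TW. On the stiff matrix it was 12385 ± 25.8 in Stiff, 12026 ± 61.3 with mito and 9533 ± 26.4 in TW, the lowest of the 6 groups. Of the 34 members with enough counts to be tested, 21 had their lowest group mean in Stiff-TW, beside 32.5% of all genes tested, and for 18 of these the 3 Stiff-TW libraries lay below every other library, beside 17.6% of all genes. The highest group mean was in Soft for 11 members and in Soft+mito for 9. No share of all genes was worked out for the highest mean, so whether these counts are unusual was not tested. The heat map of all libraries shows Stiff-TW as the darkest block of decrease, with Gstt1, Gstz1, Gstm2 and Gpx1 among the members above their Soft level there.

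**Figure D1:**
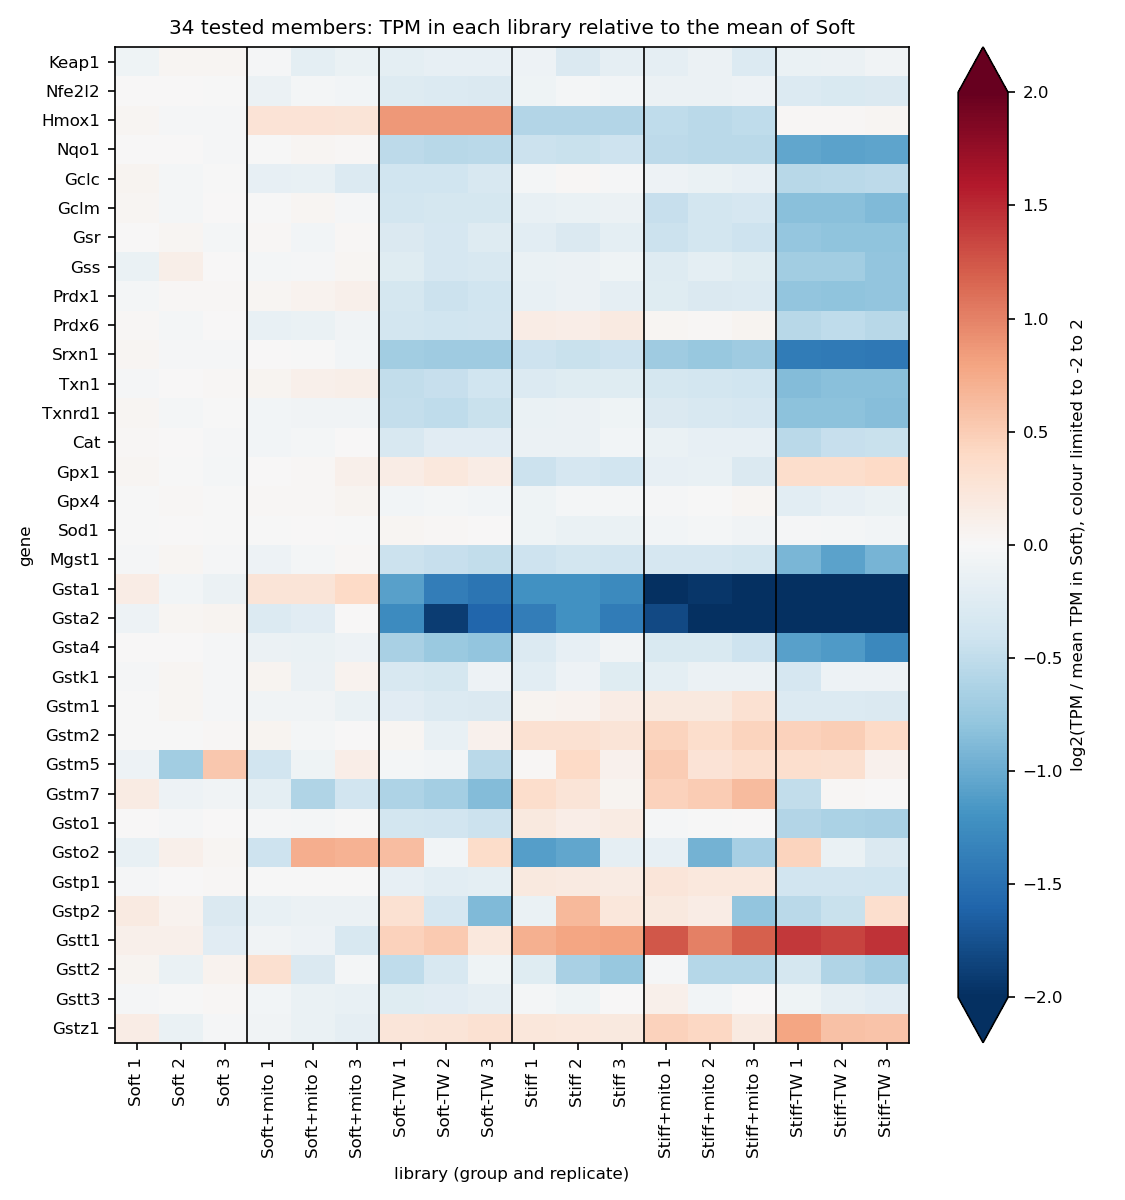
Level of each of the 34 tested members (rows) in each of the 18 libraries (columns), as log2 of TPM over the mean TPM in Soft, with the colour limited to -2 to 2. Most rows are blue in the 3 Stiff-TW libraries and the Gsta1 and Gsta2 rows are darkest there, while Hmox1 is red in Soft-TW and Gstt1 in the stiff groups.

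Among the transferases, Gstp1 took 59.9% of the summed transferase TPM on average, Gsto1 18.8% and Gstm1 10.5%. This composition moved little for the abundant genes: the Gstp1 share lay between 58.1% (Soft) and 61.8% (Stiff+mito). The summed alpha class was at 191 ± 6.11 TPM in Soft and 47.8 ± 2.17 in Stiff-TW (SD, n = 3). The theta class was at 65.1 ± 0.533 TPM in Soft and 78.5 ± 2.59 in Stiff-TW, with Gstt1 at 12.2 and 32.3 TPM, Gstt3 at 46.7 and 41.8 and Gstt2 at 6.18 and 4.27. The 6 members with too few counts to test were Gsta3, Gstm3, Gstm4, Gstm6, Gstp3 and Gstt4, none of which exceeded 8 counts in any library. Estimated counts of Gsta1, Gsta2, Gstp1, Gstp2 and Sod1 were not whole in any of the 18 libraries and those of Gstz1 in 14 of them. No source used here says how reads matching several genes were assigned, so the split between Gsta1 and Gsta2 and between Gstp1 and Gstp2 is uncertain.

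**Figure D2:**
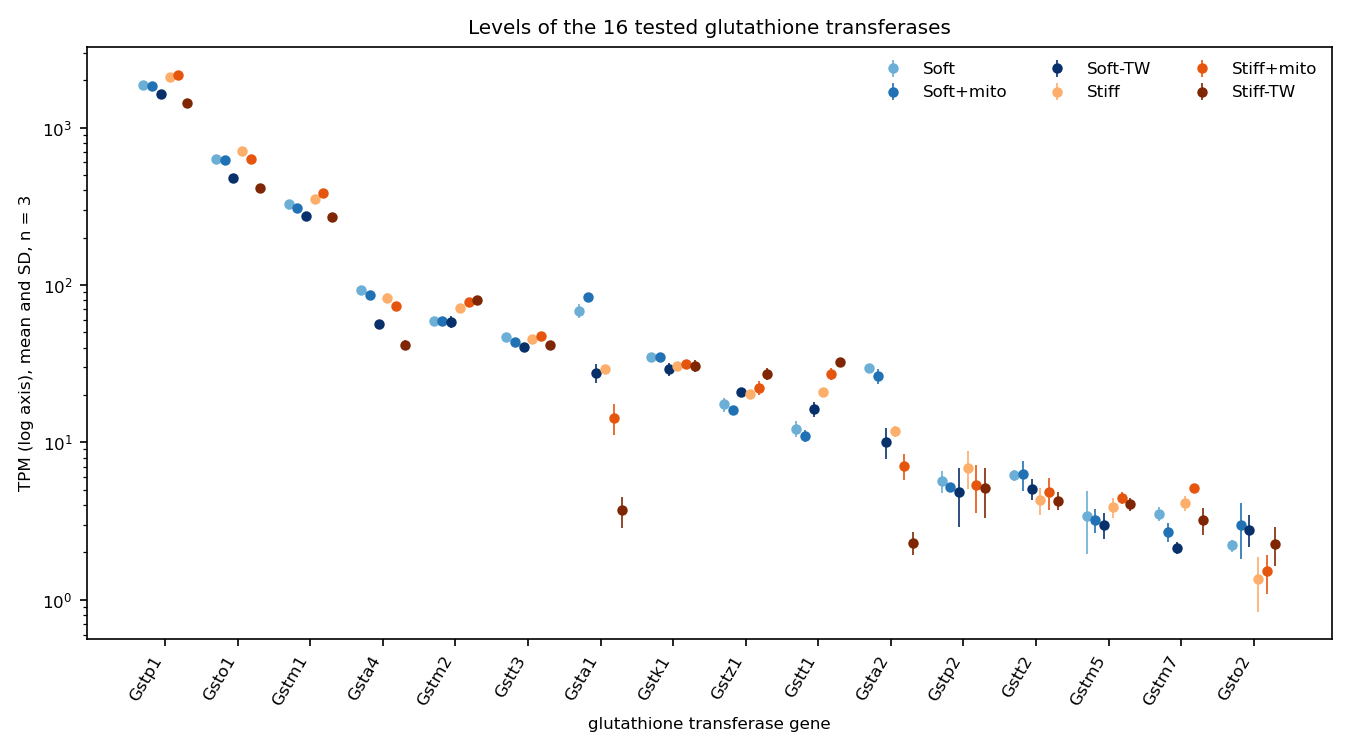
Mean TPM with SD (n = 3 libraries) of the 16 tested transferases in the 6 groups, on a log axis and ordered by mean level. Gstp1, Gsto1 and Gstm1 keep their places in all groups, while Gsta1 runs from 84.3 TPM in Soft+mito to 3.69 TPM in Stiff-TW.

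Each comparison was tested across 12245 genes, and a gene is called higher or lower at an adjusted p under 0.05. Replicate libraries were very alike and calls were frequent among all genes, so the members' counts are read beside that share. Between Stiff and Soft, 8 of the 34 tested members were higher and 12 lower, where 53.8% of all genes tested were called (29.1% higher and 24.7% lower), so the number of members called was close to the background. The members' median log2 fold change was -0.044, beside 0.015 for all genes tested. When libraries were scaled by their totals the split was 7 higher and 17 lower, and on log2(TPM + 1) it was 7 and 20. All genes shifted the same way. Of all genes called, 54.1% were higher as reported, 44.05% with library totals and 35.3% on log2(TPM + 1). The 18 members from outside the transferase classes listed above, Mgst1 included, had 2 higher and 9 lower, and the 16 tested transferases of those classes 6 higher and 3 lower.

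With mito on the soft matrix, 13 members were higher and 1 was lower than in Soft, where 14.8% of all genes were called higher and 11.9% lower (26.7% in all). The median of the members was 0.075, beside 0.0073. This direction depended on the scale: with library totals 8 were higher and 1 lower, and on log2(TPM + 1) 3 were higher and 6 lower. All genes shifted as well. Of all genes called, 55.5% were higher in the reported fit, 38.3% with library totals and 12.5% on log2(TPM + 1). With mito on the stiff matrix, 8 members were higher and 13 lower than in Stiff, where 33.5% of all genes were called (15.6% higher and 17.8% lower). The interaction of mito and matrix, which tests whether the mito difference on stiff minus that on soft is 0, was negative for 13 members and positive for 2, where 23.6% of all genes were called, 13.1% negative and 10.4% positive. On log2(TPM + 1) the split was 10 negative and 5 positive. There 79.5% of all genes called were positive, beside 44.25% in the reported fit.

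In TW the set moved further. Between Soft-TW and Soft, 6 members were higher and 21 lower, where 56.9% of all genes were called (28.9% higher and 28.0% lower), and the median was -0.16, beside -0.0037. Between Stiff-TW and Stiff, 8 were higher and 19 lower, where 69.6% of all genes were called (35.5% higher and 34.1% lower), and the median was -0.33, beside 0.0091. Of the 18 members from outside those transferase classes, 13 were lower and 4 higher in each of these comparisons. The interaction of TW and matrix was negative for 18 members and positive for 3, where 36.1% of all genes were called, 19.7% negative and 16.4% positive. The comparisons of Stiff, Soft+mito and Soft-TW with Soft share the 3 Soft libraries, and those of Stiff+mito and Stiff-TW with Stiff share the Stiff libraries.

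**Figure D3:**
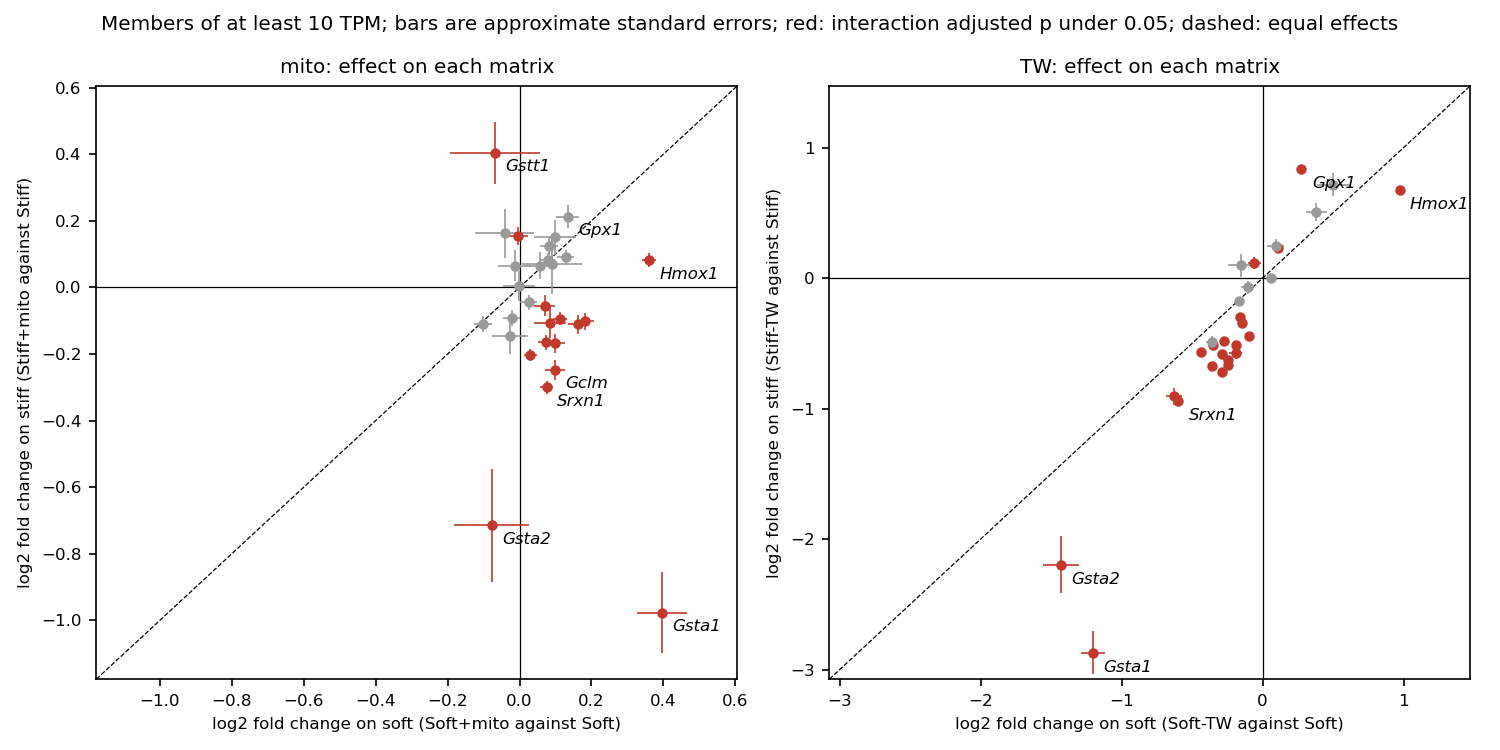
Log2 fold change of the 29 members of at least 10 TPM on the soft (x axis) and the stiff matrix (y axis), for mito on the left and TW on the right, with approximate standard errors as bars, red points where the interaction was called and a dashed line for equal effects. With mito most red points lie right of 0 and below it, and with TW most lie in the lower left below the dashed line.

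The regulators themselves moved little. Nfe2l2 (chromosome 2, 75675513 to 75704663) was measured at 251, 249 and 247 TPM in Soft, 209, 205 and 203 in Soft-TW, 233, 242 and 239 in Stiff and 207, 202 and 205 in Stiff-TW. The TW libraries lay below the others on both matrices without overlap. Its log2 fold change was -0.17 ± 0.023 (adjusted p = 1.05e-09) for Soft-TW against Soft and -0.17 ± 0.023 (adjusted p = 1.75e-10) for Stiff-TW against Stiff, and the interaction was -0.01 ± 0.033 and was not called. Stiff against Soft gave 0.02 ± 0.023 (adjusted p = 0.488) and Soft+mito against Soft 0.03 ± 0.023 (adjusted p = 0.453), neither of them called, but on log2(TPM + 1) limma called both lower, at -0.06 (adjusted p = 0.0197) and -0.07 (adjusted p = 0.0204). On that scale the medians of all genes tested were -0.055 and -0.072, so Nfe2l2 was near the typical gene in both. Nfe2l2 was also called lower in Stiff+mito than in Soft+mito, at -0.05 ± 0.023 (adjusted p = 0.0482), although the libraries overlapped. That call was lost with limma on log2(TPM + 1). Keap1 (chromosome 9, 21229730 to 21239332) had group means from 26.8 TPM in Stiff+mito to 30.6 in Soft. It was called in 1 of the 7 two-group comparisons, at 0.12 ± 0.045 (adjusted p = 0.0169) for Stiff-TW against Stiff, and that call was lost without Stiff replicate 2 or 3, without Stiff-TW replicate 3, and with DESeq2, library totals and limma on log2(TPM + 1).

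Around these 2 genes, a list of 14 partners and regulators was all tested. Between Stiff-TW and Stiff 3 were higher and 5 lower, and between Soft-TW and Soft 5 were higher and 3 lower, with medians of -0.067 and 0.044. Of all genes tested, 35.5% were higher and 34.1% lower in the first of these comparisons and 28.9% and 28.0% in the second, so the 8 of 14 called each time were near or below the background. Maff, a small MAF partner of NRF2, was the one with the largest change: its log2 fold change was 1.15 ± 0.036 (adjusted p = 5.25e-54) in Soft-TW and 1.57 ± 0.040 (adjusted p = 1.62e-62) in Stiff-TW, each against its matrix alone. With mito it rose by 0.42 ± 0.039 on soft and 0.56 ± 0.045 on stiff. Other small MAF genes were lower, Mafg by 0.22 ± 0.028 and Mafk by 0.13 ± 0.046 on the log2 scale between Stiff-TW and Stiff. Bach1, a repressor that competes with NRF2 at heme-responsive genes such as Hmox1, differed by 0.03 ± 0.038 for TW on soft and 0.02 ± 0.038 for TW on stiff and was called in neither.

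Hmox1, which encodes heme oxygenase 1, the enzyme that degrades heme to biliverdin, iron and carbon monoxide (chromosome 8, 75093618 to 75100593), rose in TW, where most members fell. Its level was 660.2, 635 and 632 TPM in Soft, 777, 772 and 769 in Soft+mito and 1168, 1172 and 1169 in Soft-TW. On the stiff matrix it was 428, 429.5 and 426 TPM alone, 452, 443 and 454 with mito and 655, 650.3 and 661 in TW. The groups were apart from each other except that the Soft and Stiff-TW libraries overlapped. Hmox1 rose in Soft-TW by 0.97 ± 0.020 (adjusted p = 1.96e-71) on the log2 scale and in Stiff-TW by 0.67 ± 0.021 (adjusted p = 2.78e-54). With mito it rose by 0.36 ± 0.020 (adjusted p = 1.97e-31) on soft and by 0.08 ± 0.021 (adjusted p = 0.00138) on stiff. Both interactions were called, at -0.28 ± 0.029 (adjusted p = 1.35e-13) for mito and -0.30 ± 0.029 (adjusted p = 3.35e-16) for TW, and Stiff was below Soft by 0.51 ± 0.021 (adjusted p = 4.37e-43). Hmox1 is also expressed by macrophages, and the summed macrophage markers were likewise highest in Soft-TW. Single markers differed: Lyz2 averaged 5.59 TPM in Soft and 30.2 in Soft-TW, and Tyrobp 0 and 3.00. Cd14, the marker with the highest mean over the 18 libraries, averaged 27.6 and 30.2 TPM and was highest in Soft+mito (32.4). The part of these markers in the Hmox1 result was not tested.

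Nqo1, the NAD(P)H quinone dehydrogenase often read as an NRF2 target (chromosome 8, 107388225 to 107403205), showed the more common pattern. It was at 1071, 1071 and 1053 TPM in Soft, 1062, 1095 and 1080.4 in Soft+mito and 737, 723 and 733 in Soft-TW. On the stiff matrix the values were 786, 784 and 800.1 TPM alone, 738, 732 and 732 with mito and 516, 507 and 514 in TW. Stiff-TW was the lowest group and Soft and Soft+mito, which overlapped, the highest. The log2 fold change was -0.44 ± 0.020 (adjusted p = 3.54e-39) for TW on soft, -0.56 ± 0.021 (adjusted p = 1.35e-47) for TW on stiff and -0.36 ± 0.020 (adjusted p = 1.62e-32) for Stiff against Soft. For mito it was 0.11 ± 0.019 (adjusted p = 1.29e-06) on soft, a rise not called on log2(TPM + 1), and -0.09 ± 0.020 (adjusted p = 7.14e-05) on stiff. The interactions were -0.21 ± 0.028 for mito and -0.13 ± 0.029 for TW, both called.

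**Figure D4:**
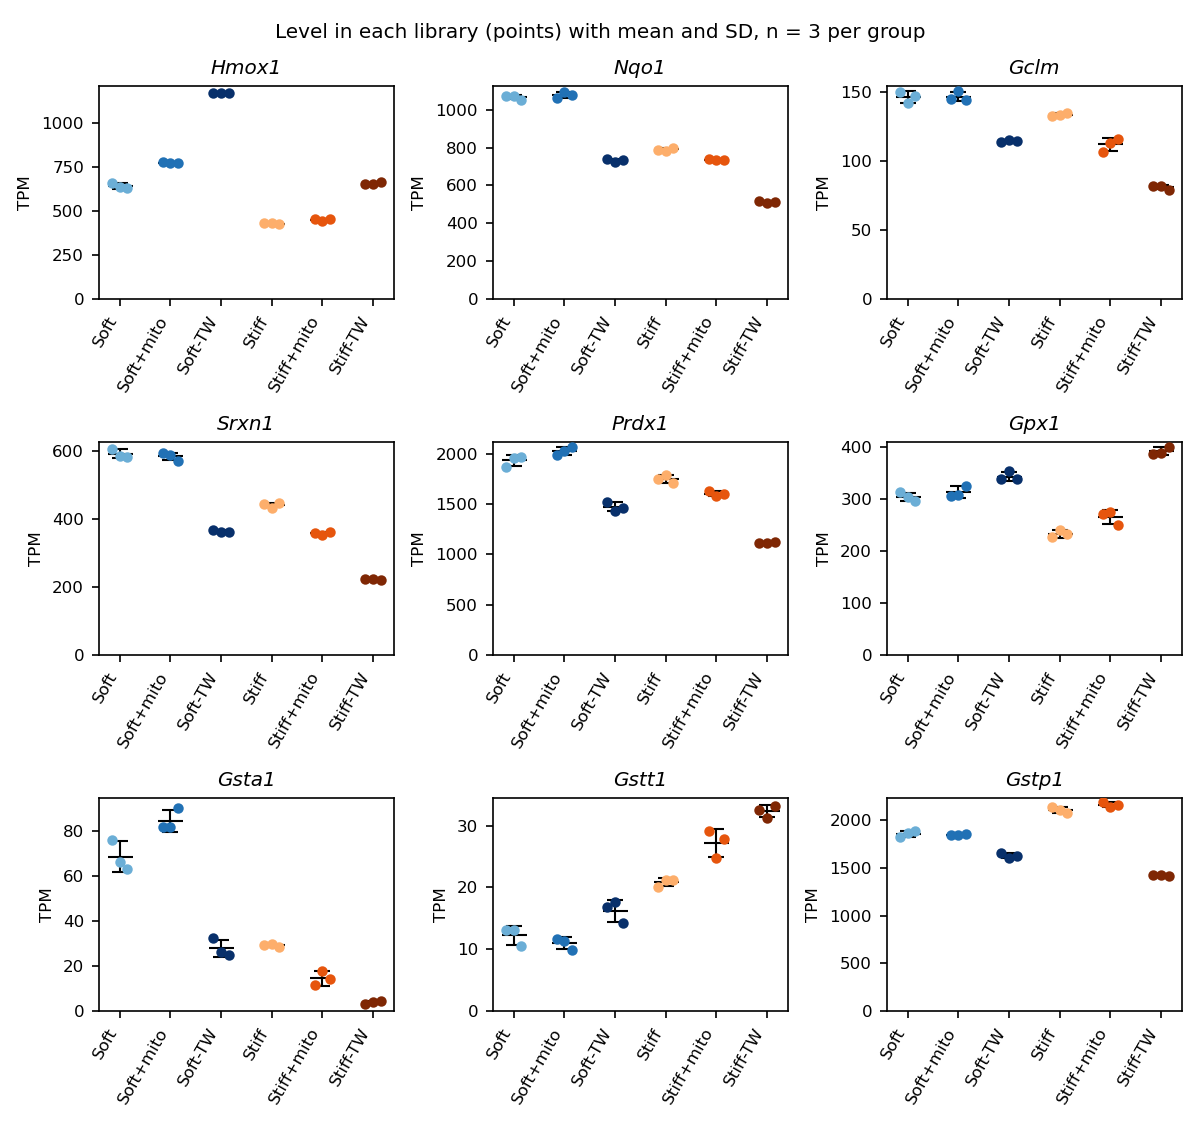
TPM of 9 members in every library (points, coloured by group) with the mean and SD of each group (black, n = 3), each on its own axis from 0. Hmox1 peaks in Soft-TW, Nqo1, Gclm, Srxn1, Prdx1 and Gstp1 are lowest in Stiff-TW, Gpx1 and Gstt1 are highest there, and Gsta1 falls from 84.3 TPM in Soft+mito to 3.69 TPM in Stiff-TW.

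Glutathione is made in 2 steps, by glutamate-cysteine ligase (catalytic subunit Gclc, modifier subunit Gclm) and glutathione synthetase (Gss), and is recycled from its oxidized form by glutathione reductase (Gsr). All 4 genes fell in TW on both matrices, and for all 4 the decrease was larger on stiff. Gclm (chromosome 3, 122245487 to 122267215) was at 149.8, 142 and 147 TPM in Soft, 145, 151 and 144 in Soft+mito and 114, 115 and 115 in Soft-TW. Stiff-matrix levels were 132, 133 and 134 alone, 107, 113 and 116 with mito and 82.0, 81.9 and 79.1 in TW. The Stiff-TW libraries lay below every other library. Gclm fell by 0.24 ± 0.029 (adjusted p = 2.87e-12) on the log2 scale in Soft-TW and by 0.67 ± 0.032 (adjusted p = 4.4e-38) in Stiff-TW, with an interaction of -0.42 ± 0.043 (adjusted p = 7.15e-15). For Gclc (chromosome 9, 77754535 to 77794489) the same differences were -0.28 ± 0.025 and -0.48 ± 0.026, with an interaction of -0.21 ± 0.036 (adjusted p = 1.3e-06). Gsr gave -0.19 ± 0.029 and -0.52 ± 0.031 with an interaction of -0.33 ± 0.043 (adjusted p = 2.06e-10), and Gss gave -0.19 ± 0.046 and -0.57 ± 0.050 with one of -0.38 ± 0.068 (adjusted p = 1.96e-06).

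With mito the 2 ligase subunits differed. Gclc fell on both matrices, by 0.10 ± 0.025 (adjusted p = 0.0009) on soft and 0.11 ± 0.025 (adjusted p = 0.00018) on stiff, and its interaction of -0.01 ± 0.035 was not called. Gclm rose by 0.10 ± 0.028 (adjusted p = 0.00499) on soft and fell by 0.25 ± 0.030 (adjusted p = 1.75e-11) on stiff, with an interaction of -0.34 ± 0.041 (adjusted p = 2.95e-11). Gsr did likewise, at 0.10 ± 0.028 (adjusted p = 0.00482) on soft, -0.17 ± 0.030 (adjusted p = 2.09e-06) on stiff and -0.27 ± 0.041 for the interaction. The rises of Gclm and Gsr on soft were called neither with library totals nor on log2(TPM + 1), where they were 0.0031 and 0.0019, while both decreases on stiff were. Between Stiff and Soft, Gsr was lower by 0.15 ± 0.029 (adjusted p = 5.49e-06), Gclm (-0.05) and Gss (-0.04) were not called, and the 0.06 ± 0.025 of Gclc was called, but not with DESeq2, limma, other scaling, no filter or only the groups compared, or without Soft or Stiff replicate 2.

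The thioredoxin system reduces protein disulfides and peroxides. Thioredoxin (Txn1) is kept reduced by thioredoxin reductase (Txnrd1), peroxiredoxins (Prdx1, Prdx6) remove peroxides, and sulfiredoxin (Srxn1) restores peroxiredoxins that have been overoxidized. All 5 genes fell in TW on both matrices, more so on stiff. The promoter of Srxn1 (chromosome 2, 152105524 to 152111376) above held 5 matches, counting an AP-1 element that lies inside the TGAGTCAGC. Srxn1 was at 608, 587 and 585 TPM in Soft, 594, 589 and 572 in Soft+mito and 367, 361 and 362 in Soft-TW. On stiff the gene was measured at 444, 434 and 446 alone, 361, 352 and 361 with mito and 225, 223 and 220.4 in TW. The 3 Stiff-TW libraries were the lowest and the Soft and Soft+mito libraries overlapped. Srxn1 fell by 0.60 ± 0.019 (adjusted p = 3.11e-52) on the log2 scale in Soft-TW and by 0.94 ± 0.020 (adjusted p = 4.04e-69) in Stiff-TW, and was lower by 0.34 ± 0.019 (adjusted p = 7.68e-32) in Stiff than in Soft. The TW interaction was -0.35 ± 0.028 (adjusted p = 1.76e-20). With mito Srxn1 was at 0.08 ± 0.019 (adjusted p = 0.000955) on soft, a rise that turned to -0.0197 on log2(TPM + 1), and at -0.30 ± 0.019 (adjusted p = 2.75e-26) on stiff.

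Prdx1 (chromosome 4, 116685599 to 116700000) was at 1871, 1961 and 1964 TPM in Soft, 1989, 2026 and 2068 in Soft+mito and 1519, 1433 and 1459 in Soft-TW. The corresponding stiff values were 1748, 1787 and 1705 alone, 1633, 1579 and 1595 with mito and 1115, 1109.9 and 1123 in TW. All 6 groups were apart. Prdx1 and Txn1 were the 2 members that rose with mito on soft and fell with it on stiff with every other scaling, filter and test tried: Prdx1 by 0.16 ± 0.028 (adjusted p = 0.0002) and -0.11 ± 0.029 (adjusted p = 0.00493), and Txn1 by 0.18 ± 0.025 (adjusted p = 3.03e-07) and -0.10 ± 0.026 (adjusted p = 0.00199). In TW, Prdx1 fell by 0.29 ± 0.029 on soft and 0.58 ± 0.029 on stiff, and Txn1 by 0.35 ± 0.026 and 0.51 ± 0.027. Prdx1 was lower in Stiff than in Soft by 0.08 ± 0.029 (adjusted p = 0.0238), a call lost without Soft replicate 2 or 3 and without Stiff replicate 1 or 3.

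Txnrd1 (chromosome 10, 82833951 to 82897724) had group means of 566 ± 13.6 TPM in Soft, 407 ± 9.64 in Soft-TW, 524 ± 7.15 in Stiff and 319 ± 3.58 in Stiff-TW (SD, n = 3). It fell by 0.36 ± 0.019 (adjusted p = 2.99e-34) in Soft-TW and by 0.67 ± 0.019 (adjusted p = 1.39e-57) in Stiff-TW, with an interaction of -0.31 ± 0.027 (adjusted p = 8.71e-19). Its difference with mito was 0.03 ± 0.019 on soft, not called, and -0.20 ± 0.019 (adjusted p = 8.38e-17) on stiff. Prdx6, the peroxiredoxin that uses glutathione in place of thioredoxin, was the 1 gene of this system that was higher in Stiff than in Soft, by 0.23 ± 0.024 (adjusted p = 1.06e-14). It then fell in Stiff-TW by 0.63 ± 0.025 (adjusted p = 2.22e-44) and in Soft-TW by 0.25 ± 0.025 (adjusted p = 1.31e-15), with an interaction of -0.38 ± 0.035 (adjusted p = 5.5e-17).

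The peroxide and superoxide enzymes did not move together. Gpx1, the cytosolic glutathione peroxidase (chromosome 9, 108339080 to 108340342), was at 313, 304 and 296 TPM in Soft, 306, 308 and 326 in Soft+mito and 338, 354 and 338 in Soft-TW. Levels on stiff were 226, 239.8 and 232 alone, 271, 275 and 249.8 with mito and 386, 389 and 401 in TW. Stiff was the lowest group and Stiff-TW the highest, each apart from the rest. Gpx1 rose in Soft-TW by 0.28 ± 0.031 (adjusted p = 2.91e-12) and in Stiff-TW by 0.83 ± 0.032 (adjusted p = 1.79e-37), and its TW interaction of 0.56 ± 0.045 (adjusted p = 5.06e-18) was the most positive of any member called. It also rose with mito, by 0.21 ± 0.034 (adjusted p = 4.29e-07) on stiff and by 0.13 ± 0.031 (adjusted p = 0.000586) on soft, the latter not called on log2(TPM + 1). Sod1, the cytosolic superoxide dismutase, rose in TW by 0.11 ± 0.026 on soft and 0.23 ± 0.027 on stiff, the first of which was not called with library totals or on log2(TPM + 1).

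Cat, the catalase of peroxisomes, fell in TW by 0.14 ± 0.031 (adjusted p = 3.67e-05) on soft and 0.34 ± 0.032 (adjusted p = 1.82e-17) on stiff. Gpx4, which reduces lipid peroxides in membranes, had group means between 1478 TPM in Stiff-TW and 1709 in Soft+mito. Its difference between Stiff-TW and Stiff was 0.00 ± 0.023 and not called, whereas on log2(TPM + 1) it was -0.12 and limma called it lower (adjusted p = 6.02e-05). Gpx4 was divided over 2 main transcripts. NM_008162 held 6.72% ± 0.585 of Gpx4 TPM in Soft, 8.59% ± 0.469 in Soft-TW, 8.13% ± 0.357 in Stiff and 12.0% ± 0.593 in Stiff-TW (SD, n = 3), and NM_001367995 held 93.2% ± 0.588 in Soft and 87.9% ± 0.636 in Stiff-TW. In TPM the first was at 122, 138 and 131 in the Stiff libraries and 165, 187 and 179 in the Stiff-TW libraries and the second at 1471 ± 19.6 and 1299 ± 29.0. These transcript levels are estimates from shared reads and were described without a test.

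Mgst1, a membrane-bound glutathione transferase with peroxidase activity, fell by 0.36 ± 0.039 (adjusted p = 5.28e-14) in Soft-TW and by 0.49 ± 0.045 (adjusted p = 2.51e-18) in Stiff-TW and was lower in Stiff than in Soft by 0.35 ± 0.039 (adjusted p = 3.38e-13). Its difference with mito was not called on either matrix.

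The alpha class held the largest changes of the set. Gsta1 (chromosome 9, 78230669 to 78242683) was at 76.0, 66.0 and 62.9 TPM in Soft, 81.4, 81.5 and 90.1 in Soft+mito and 32.1, 26.3 and 24.7 in Soft-TW. The stiff libraries gave 29.4, 29.6 and 28.2 alone, 11.4, 17.7 and 14.0 with mito and 2.85, 3.72 and 4.50 in TW. Soft+mito was the highest group and Stiff-TW the lowest, each apart from the others, and Soft-TW overlapped Stiff. The log2 fold change between Stiff-TW and Stiff was -2.87 ± 0.16 (adjusted p = 1.35e-27), which ranked 12th from the lowest of all 12245 genes tested, and that between Stiff-TW and Soft-TW was -2.87 ± 0.16 (adjusted p = 5.4e-27), which ranked 7th. Gsta1 fell by 1.20 ± 0.087 (adjusted p = 3.64e-21) in Stiff against Soft and by 1.20 ± 0.087 (adjusted p = 2.27e-21) in Soft-TW. With mito it rose on soft by 0.40 ± 0.070 (adjusted p = 4.9e-06) and fell on stiff by 0.98 ± 0.12 (adjusted p = 1.76e-10), with an interaction of -1.37 ± 0.14 (adjusted p = 4.06e-13). On log2(TPM + 1) the rise on soft was 0.30 with an adjusted p of 0.128 from limma.

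Gsta2, a neighbour of Gsta1 (chromosome 9, 78331018 to 78347192), was at 27.5, 30.3 and 30.5 TPM in Soft, 24.4, 25.2 and 29.5 in Soft+mito and 12.4, 7.89 and 9.84 in Soft-TW. On the stiff matrix the values were 11.2, 12.8 and 11.2 alone, 8.45, 6.97 and 5.82 with mito and 2.57, 1.86 and 2.48 in TW. Stiff-TW was again below every other library. Gsta2 fell by 1.31 ± 0.13 (adjusted p = 1.53e-16) in Stiff, by 1.43 ± 0.13 (adjusted p = 2.76e-18) in Soft-TW against Soft and by 2.20 ± 0.22 (adjusted p = 2.94e-16) in Stiff-TW against Stiff. Its interactions, -0.64 ± 0.20 (adjusted p = 0.0122) for mito and -0.77 ± 0.27 (adjusted p = 0.0192) for TW, were not called with DESeq2 or on log2(TPM + 1), and each was lost without 1 of 2 single libraries (Soft+mito or Stiff+mito replicate 3 for mito, Soft-TW replicate 1 or Stiff-TW replicate 2 for TW). The estimated counts of both genes were not whole in any library. Gsta4, which conjugates products of lipid peroxidation, lies beside them (chromosome 9, 78191966 to 78209349) and fell from 93.5 ± 1.15 TPM in Soft to 56.5 ± 2.70 in Soft-TW and from 83.2 ± 5.79 in Stiff to 41.7 ± 3.07 in Stiff-TW (SD, n = 3). These were log2 differences of -0.63 ± 0.056 (adjusted p = 3.44e-18) and -0.91 ± 0.062 (adjusted p = 7.24e-26).

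The abundant pi, omega and mu genes were higher in Stiff than in Soft and fell in TW. Gstp1 was at 1826, 1865 and 1890.4 TPM in Soft, 1844, 1851 and 1854 in Soft+mito and 1658, 1606 and 1629.6 in Soft-TW. Stiff-matrix levels were 2138, 2105 and 2079 alone, 2196, 2143 and 2160.0 with mito and 1429.6, 1431 and 1416 in TW. Stiff+mito was the highest group and Stiff-TW the lowest, with Soft and Soft+mito overlapping. Gstp1 was higher in Stiff than in Soft by 0.19 ± 0.021 (adjusted p = 1.33e-13), fell in Stiff-TW by 0.44 ± 0.022 (adjusted p = 1.02e-36) and in Soft-TW by 0.10 ± 0.022 (adjusted p = 5.97e-05), and had a TW interaction of -0.35 ± 0.031 (adjusted p = 5.3e-18). Gsto1, an omega transferase with thioltransferase and dehydroascorbate reductase activity, was higher in Stiff by 0.23 ± 0.023 (adjusted p = 7.63e-16) and fell by 0.72 ± 0.024 (adjusted p = 1.29e-51) in Stiff-TW and 0.29 ± 0.024 (adjusted p = 8.19e-21) in Soft-TW. Gstm1, the leading mu gene, was higher in Stiff by 0.15 ± 0.027 (adjusted p = 1.09e-06), rose further in Stiff+mito by 0.15 ± 0.027 (adjusted p = 1.42e-06) and fell in Stiff-TW by 0.30 ± 0.028 (adjusted p = 6.29e-17).

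A smaller group of transferases rose in TW. Gstt1, a theta transferase that acts on halogenated compounds (chromosome 10, 75783813 to 75798584), was at 13.1, 13.1 and 10.5 TPM in Soft, 11.6, 11.4 and 9.84 in Soft+mito and 16.7, 17.6 and 14.2 in Soft-TW. On stiff the gene was measured at 20.0, 21.2 and 21.2 alone, 29.0, 24.7 and 27.9 with mito and 32.5, 31.3 and 33.2 in TW. Every stiff library was above every soft library, and only Soft and Soft+mito overlapped. Gstt1 was higher in Stiff than in Soft by 0.81 ± 0.11 (adjusted p = 3.57e-10), and rose in Soft-TW by 0.50 ± 0.12 (adjusted p = 0.000104) and in Stiff-TW by 0.72 ± 0.090 (adjusted p = 7.81e-12). With mito it rose on stiff by 0.40 ± 0.093 (adjusted p = 0.000234), while its -0.07 ± 0.13 on soft was not called. The mito interaction of 0.47 ± 0.16 (adjusted p = 0.0173) was not called with DESeq2 or without Soft replicate 1, Soft replicate 2 or Soft+mito replicate 3. Gstz1, the zeta transferase that also isomerizes maleylacetoacetate in tyrosine breakdown, rose by 0.38 ± 0.077 in Soft-TW and 0.51 ± 0.070 in Stiff-TW.

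Gstm2, a mu gene beside Gstm1, was higher in Stiff than in Soft by 0.34 ± 0.056 (adjusted p = 1.68e-07) and rose in Stiff-TW by 0.24 ± 0.052 (adjusted p = 2.09e-05), while its TW difference of 0.09 ± 0.058 on soft was not called. Gstm7, another mu gene, averaged 3.46 TPM. It was lower in Soft-TW than in Soft by 0.61 ± 0.22 (adjusted p = 0.0139), a call lost with DESeq2 and without Soft replicate 1 or Soft-TW replicate 3. Gstm7 was higher in Stiff+mito than in Soft+mito by 0.90 ± 0.19 (adjusted p = 2.72e-05) with the libraries apart, and higher in Stiff-TW than in Soft-TW by 0.59 ± 0.22 (adjusted p = 0.0194), a call lost with DESeq2 and without Soft-TW replicate 3 or Stiff-TW replicate 2 or 3. Gstt3, at 44.2 TPM, was lower in Soft-TW than in Soft by 0.11 ± 0.047 (adjusted p = 0.0499) and higher in Stiff+mito than in Soft+mito by 0.12 ± 0.046 (adjusted p = 0.0183). Gsto2 averaged 2.18 TPM and was higher in Stiff-TW than in Stiff by 0.79 ± 0.31 (adjusted p = 0.0169), although its libraries overlapped. It was lower in Stiff+mito than in Soft+mito by 0.99 ± 0.28 (adjusted p = 0.00122), also with overlapping libraries. The Gsto2 call for TW was lost with DESeq2, on log2(TPM + 1) and without Stiff replicate 1 or 2 or Stiff-TW replicate 1, and both calls of Gstt3 were lost with DESeq2 and without several single libraries (Soft replicate 2 or 3 and Soft-TW replicate 1 or 2 for the first, Soft+mito replicate 2 and Stiff+mito replicate 1 or 3 for the second). The remaining tested transferases, Gstk1, Gstm5, Gstp2 and Gstt2, did not reach an adjusted p under 0.05 in the 7 two-group comparisons, and for the last 3, at 3.66 to 5.52 TPM, only large differences could have been seen.

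Between the matrices within mito, 8 members were higher and 19 lower in Stiff+mito than in Soft+mito, where 63.5% of all genes were called (32.7% higher and 30.8% lower). Within TW, 5 were higher and 19 lower in Stiff-TW than in Soft-TW, where 54.3% were called (27.6% higher and 26.7% lower). Hmox1 was lower on stiff in both, by 0.79 ± 0.020 (adjusted p = 5.1e-61) with mito and 0.81 ± 0.019 (adjusted p = 5.56e-63) in TW. Srxn1 was lower by 0.72 ± 0.019 and 0.69 ± 0.020, and Gsta1 by 2.57 ± 0.10 and 2.87 ± 0.16. Gpx1 changed direction between them, lower on stiff with mito by 0.26 ± 0.032 (adjusted p = 6.13e-11) and higher on stiff in TW by 0.22 ± 0.030 (adjusted p = 1.35e-09). Gstt1 was higher on stiff in both, by 1.29 ± 0.10 (adjusted p = 9.29e-21) and 1.03 ± 0.094 (adjusted p = 9.24e-18).

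Set against both matrices at once, 8 members rose with mito on soft and fell with it on stiff: Nqo1, Gclm, Gsr, Prdx1, Srxn1, Txn1, Gsta1 and Gsto1. They were 23.5% of the members tested, beside 2.11% of all genes. All 8 fell on stiff and had a negative interaction with every other scaling, filter and test tried and without any single library, but their rise on soft was called for 5 of the 8 with library totals, for 7 with only the groups compared (not Gsto1) and for 2 on log2(TPM + 1), and those of Gsr and Gsto1 were lost without Soft+mito replicate 3. Hmox1, Gpx1, Gpx4, Sod1 and Gstp1 rose with mito on both matrices, beside 4.32% of all genes, and the rises of Sod1 and Gstp1 on soft turned to -0.0015 and -0.0082 on log2(TPM + 1). On that scale the rises of Gpx4 on both matrices, of Gpx1 on soft and of Gstp1 on stiff were not called. The rises of Sod1 and Gstp1 on soft were also not called with library totals or only the groups compared, nor without Soft replicate 1, nor for Sod1 without Soft+mito replicate 3. With TW, 19 of the 34 members (55.9%) fell on both matrices, beside 22.2% of all genes, and 5 (14.7%; Hmox1, Gpx1, Sod1, Gstt1 and Gstz1) rose on both, beside 23.7%. Of the 19 that fell, 17 also had a negative interaction, which was true of 9.91% of all genes. The exceptions were Nfe2l2 and Mgst1.

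Other genes controlled by NRF2, a list of 32 of which 28 were tested, were 4 higher and 16 lower in Soft-TW than in Soft, with a median of -0.12, and 7 higher and 18 lower in Stiff-TW than in Stiff, with a median of -0.26. Of all genes tested, 28.9% were higher and 28.0% lower on soft, and 35.5% and 34.1% on stiff. Slc7a11, the cystine importer that feeds glutathione synthesis, fell by 0.65 ± 0.022 (adjusted p = 5.51e-50) on soft and 1.52 ± 0.023 (adjusted p = 3.91e-83) on stiff, from 109 ± 2.32 TPM in Stiff to 37.5 ± 1.31 in Stiff-TW (SD, n = 3). Its partner chain Slc3a2 fell by 0.39 ± 0.025 and 0.86 ± 0.024. Aldh3a1, an aldehyde dehydrogenase, fell by 1.31 ± 0.024 (adjusted p = 3e-76) and Cbr3, a carbonyl reductase, by 1.11 ± 0.12 (adjusted p = 2.17e-15) between Stiff-TW and Stiff. Ugdh, which makes the sugar donor for glucuronidation, rose by 0.40 ± 0.027 (adjusted p = 3.53e-27) in the same comparison. With mito, 12 genes of this list were higher and 4 lower on soft (14.8% and 11.9% of all genes), where Osgin1 rose by 0.47 ± 0.060 (adjusted p = 1.86e-10), and 5 were higher and 13 lower on stiff (15.6% and 17.8% of all genes), where Slc7a11 fell by 0.53 ± 0.022 (adjusted p = 2.55e-42). The rises on soft depended on the scale here too. In TPM, Osgin1, Esd and Taldo1 were higher with mito without overlap, Fth1 and Ftl1 were lower without overlap, and the others called higher overlapped. Between Stiff and Soft 12 were higher and 11 lower, beside 29.1% and 24.7% of all genes. The list held genes on both sides there: Slc3a2 was higher by 0.52 ± 0.023 (adjusted p = 1.77e-39) and Idh1, a source of NADPH, lower by 0.52 ± 0.030 (adjusted p = 4.38e-31).

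A list of 37 other redox and glutathione genes, 34 of them tested, had 9 higher and 11 lower in TW on soft and 11 higher and 14 lower on stiff. These counts were near the background of 28.9% higher and 28.0% lower on soft and 35.5% and 34.1% on stiff. Prdx5, a peroxiredoxin of mitochondria, peroxisomes and cytosol, rose by 1.17 ± 0.029 (adjusted p = 6.05e-60) on soft and 1.33 ± 0.030 (adjusted p = 1.21e-63) on stiff, while Prdx3, the mitochondrial peroxiredoxin, fell by 0.25 ± 0.038 and 0.58 ± 0.038. Chac1, which breaks down glutathione, fell by 1.04 ± 0.038 (adjusted p = 2.86e-47) and 1.12 ± 0.035 (adjusted p = 1.17e-53). Glrx, a glutaredoxin, rose by 0.81 ± 0.054 (adjusted p = 1.27e-26) on stiff. Txnip, which binds and inhibits thioredoxin, was higher in Stiff than in Soft by 1.36 ± 0.051 (adjusted p = 7.83e-46), the largest such difference of the list, and rose in TW by 1.11 ± 0.053 on soft and 0.78 ± 0.038 on stiff.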

How the data were processed

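The 18 libraries were strand-specific (dUTP), made from poly(A) RNA taken with TRIzol and read as pairs, per the labels' protocols. The genome build was mm10 per the submitters' processing notes, and no aligner, quantifier or annotation is named in the sources used here. The authors deposited estimated counts (expected counts) and TPM for 18397 genes and 64855 transcripts, and 10.9% of the gene values of the estimated counts were not whole at a tolerance of 0.001. In each table, 36 columns of other per-sample values and 44 columns of averages were not used.

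For the tests, done by edgeR 4.0.16 (R 4.3.3), estimated counts were rounded: filterByExpr by group left 12245 genes, TMM factors were 0.968 to 1.031, and all 18 libraries entered 1 quasi-likelihood fit with 6 group means (common biological coefficient of variation 0.0175). There were 7 two-group comparisons and 2 interactions, by F-tests (two-sided), and p-values were adjusted by Benjamini-Hochberg over all genes tested. Standard errors are approximate, computed as log2 fold change over the root of F. Log2 fold changes are of TMM-scaled counts, so they can differ from ratios of the printed TPM, also in sign where changes are small. For Soft-TW against Soft, the median of all genes tested shifted by -0.0887 on log2(TPM + 1). Gpx4 was called higher in that comparison, at 0.06, although every Soft-TW library was below every Soft library in TPM.

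Always named were Nfe2l2, Keap1, Hmox1, Nqo1, Gclc, Gclm, Gsr, Srxn1 and Txnrd1. Of the other members, the rule took up to 5 higher and 5 lower per comparison, with libraries apart and at least 1 TPM, and 4 of smallest adjusted p per interaction, and of the 3 gene lists up to 3 higher and 3 lower of at least 5 TPM. Other members were described so that each is accounted for. Of the list genes, Bach1, Mafk, Slc3a2 and Prdx3 were named for their roles, and Fth1 and Ftl1 for their direction in TPM. Not every list gene that the rule took is given in the text. The members, lists, comparisons and rules were chosen with earlier results of these data known. Alternatives were other scalings (DESeq2's size factors as relative log expression, library totals), no filter, DESeq2 1.42.0, limma 3.58.1 on log2(TPM + 1), only the groups compared, a replicate block and leaving out each library. The fit was also run on simulated counts, whose outcome is not reported here. Transcript positions were not used for tests, and motif searches covered promoter windows of RefSeq.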

Additional observations from a re-analysis of the deposited data

Results flagged for a closer look

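These results stand out because the effect of mito or of TW differed between the soft and the stiff matrix by a test of the interaction in edgeR with Benjamini-Hochberg adjustment over all genes. Values are interaction log2 fold changes, the difference on stiff minus that on soft. For mito, 13 members had a negative interaction: the alpha transferases Gsta1 (-1.37) and Gsta2 (-0.64), the thioredoxin genes Srxn1 (-0.38), Txn1 (-0.28), Prdx1 (-0.27) and Txnrd1 (-0.23), the glutathione genes Gclm (-0.34), Gsr (-0.27) and Gss (-0.19), and Hmox1 (-0.28), Gsto1 (-0.24), Nqo1 (-0.21) and the catalase gene Cat (-0.12). Positive interactions with mito were those of Gstt1 (0.47) and Gstm1 (0.16). Those of Gsta2, Gss, Gstt1 and Cat were not called with DESeq2, those of Gsta2, Gss and Cat not on log2(TPM + 1), and that of Cat not with library totals or only the groups compared. The calls were lost without Soft replicate 1, Soft+mito replicate 3 or Stiff+mito replicate 1 for Gss, without Soft+mito replicate 3 or Stiff replicate 3 for Cat, without Soft+mito replicate 3 or Stiff+mito replicate 3 for Gsta2, and without Soft replicate 1, Soft replicate 2 or Soft+mito replicate 3 for Gstt1.

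For TW the alpha transferases again had the most negative interactions, Gsta1 (-1.67) and Gsta2 (-0.77), with Gsta4 (-0.28) behind them. Among other transferases the values were -0.43 for Gsto1, -0.35 for Gstp1 and -0.14 for Gstm1. The glutathione genes gave -0.42 (Gclm), -0.38 (Gss), -0.33 (Gsr) and -0.21 (Gclc), and the thioredoxin genes -0.38 (Prdx6), -0.35 (Srxn1), -0.31 (Txnrd1), -0.29 (Prdx1) and -0.16 (Txn1). Hmox1, which rose in TW on both matrices, rose less on stiff (-0.30), Nqo1 fell more there (-0.13), and the value for Cat was -0.20. Positive interactions with TW were those of Gpx1 (0.56), Keap1 (0.18) and Sod1 (0.12). Those of Gsta2 and Keap1 were not called with DESeq2, and those of Gsta2, Gstm1 and Sod1 were not called on log2(TPM + 1). Single libraries also ended 3 calls for TW: that of Gsta2 without Soft-TW replicate 1 or Stiff-TW replicate 2, that of Gsta4 without Stiff-TW replicate 3, and that of Keap1 without Soft replicate 2, Soft replicate 3, Soft-TW replicate 1, Stiff replicate 2 or Stiff-TW replicate 3.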

How the results depend on the processing

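Over the 9 counts of members called, every alternative stayed within 1.5 times of the reported count except for Soft+mito against Soft, where 14 members became 9 with library totals (8 higher, 1 lower) and 9 with limma on log2(TPM + 1) (3 higher, 6 lower). The cause was not tested, and the median of all genes tested shifted by -0.028 with library totals and by -0.0797 on the TPM scale in that comparison. Leaving out each library in turn gave 11 to 16 members there, 17 to 21 for Stiff against Soft, 12 to 17 for the mito interaction and 19 to 23 for the TW interaction. Among single members, 10 differences changed sign, all with limma on log2(TPM + 1): Nfe2l2 (Stiff against Soft -0.063, Soft+mito against Soft -0.07), Gclc (Stiff against Soft -0.0133), Gpx4 (Soft-TW against Soft -0.0434, Stiff-TW against Stiff -0.1169) and, in Soft+mito against Soft, Srxn1 (-0.0197), Txnrd1 (-0.0659), Sod1 (-0.0015), Gsto1 (-0.018) and Gstp1 (-0.0082). Of the 34 tested members' differences, 17 lost their call with DESeq2, 10 with library totals and 25 with limma, while 0, 8 and 24 gained one, and leaving out a library ended a call in 66 of 2244 refitted differences and added one in 22. Same-numbered libraries showed little shared deviation (45 pairs, correlations from -0.13 to 0.197, median 0.006, 4 pairs over 0.1). Such low correlations cannot exclude that the numbers pair the samples, which the labels do not state. With the replicate block 28 members were called for Stiff+mito against Soft+mito in place of 27, Gclc being the one added, and the other 8 counts were as reported. Low counts limit Gstm5, Gstm7, Gsto2, Gstp2 and Gstt2, and the 6 untested members. They also limit Gsta1 and Gsta2 in Stiff-TW, whose estimated counts there summed to 64.1 and 40.2 over the 3 libraries.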
